A study of Mus musculus with 12 samples.

Results

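An R-loop is a 3-stranded structure in which RNA pairs with the DNA strand it was copied from and leaves the other strand unpaired. R-loops form during transcription, often over GC-rich gene starts and near gene ends, and S9.6 is an antibody that binds the RNA-DNA hybrid. The regions described here are moderate-score genic peaks that the HEPA1-6 list and the liver list have in common. Each is a pair of 1 HEPA1-6 interval and 1 liver interval. The pairs were chosen by the positions, strands and scores of the peaks. Each interval had to be overlapped over at least 50% of its length, both had to carry the same strand, and both had to overlap a RefSeq gene of GRCm38. The authors' score had to be below 60 in liver and below 100 in HEPA1-6, and the chromosomes were 1 to 14 and 16 to 19. The rule found 2235 pairs, with no peak in more than 1 of them, which took in 7.78% of the 28717 HEPA1-6 peaks and 15.0% of the 14908 liver peaks.

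HEPA1-6 is a mouse hepatoma cell line, and the liver came from C57/Bl6 mice, whose age is not given in the sources used here. The labels describe both sources as wild type and untreated, and call the cell type hepatocyte. The 12 libraries formed 6 groups of 2: S9.6 immunoprecipitates, immunoprecipitates with RNase H1, which removes the RNA of a hybrid, and input DNA, for each source. The data used here are 1 peak list per source, from a merged immunoprecipitate against input. With 1 list per source there is no replicate check, no p-value is given, and sequencing depth is unknown. Peaks of the RNase H1 libraries were not analysed here. Intervals in brackets are 95% Wilson intervals over pairs, peaks, ends of peaks, start windows or genes. They cover counting error only. Neighbouring regions, and start windows of the same gene, are not independent.

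The ends of the pairs often lay on the same base in both lists, and where the sequence could be read, that base was the cut position of a restriction enzyme. The start was the same base in 985 of 2235 pairs (44.1%, 42.0 to 46.1%) and the end in 978 (43.8%, 41.7 to 45.8%). Both ends were the same in 368 pairs (16.5%, 15.0 to 18.1%), and at least 1 end in 1595 (71.4%, 69.5 to 73.2%). The R-loop mapping protocol that the labels cite fragments DNA with a cocktail of restriction enzymes. The labels do not list the enzymes, so the 5 of the published protocol were searched. Their sites are AAGCTT for HindIII, GAATTC for EcoRI, TGTACA for BsrGI, TCTAGA for XbaI and AATATT for SspI. Each site reads the same on both strands, and none of them contains another. Sequence was at hand only for RefSeq windows around gene starts, 250 bases before and 50 bases from the start. Of 1963 shared ends, 77 lay inside such a window, at least 15 bases from its edge. Of these, 76 (98.7%, 93.0 to 99.8%) were exactly where 1 of the 5 enzymes would leave the end of a filled-in fragment. In all windows, 0.113% of positions are such a position for a fragment start. HindIII accounted for 26 shared ends, EcoRI for 20, XbaI for 13, BsrGI for 9 and SspI for 8.

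The following stretches show these shared ends. Each has 30 bases of the upper strand of GRCm38 from the RefSeq windows, with the end of the pair in the middle and the recognition site in capitals. There are 2 examples per enzyme, and the last is the single readable shared end without a site, at Tma7. They were picked after their values were seen.
Eif1, HindIII, start of the pair, chr11:100319748-100319777: cgcgcaggcggaccAAGCTTtccctccccc
Spred2, HindIII, start of the pair, chr11:19924338-19924367: tggtcgcaagtaggAAGCTTtttgcactcc
Hnrnph1, EcoRI, start of the pair, chr11:50376844-50376873: ctgctatgttgcagGAATTCtcttaaacgt
Usp47, EcoRI, start of the pair, chr7:112023406-112023435: gcgcccactgcgttGAATTCtcgcgagagc
Jpt1, BsrGI, end of the pair, chr11:115514553-115514582: cgcccccttccTGTACAgagaaaggccgct
Rnf7, BsrGI, end of the pair, chr9:96478748-96478777: tgggcaaggccTGTACAgagaaccccagcg
Ptges3, XbaI, start of the pair, chr10:128058909-128058938: cttccgtagagatcTCTAGAaaaccgcgca
Fam222b, XbaI, start of the pair, chr11:78094467-78094496: tttaggcaagatatTCTAGAggcctaaaag
Ap5z1, SspI, start of the pair, chr5:142463782-142463811: cttctgtactgcAATATTttggccaaggcc
Tbc1d20, SspI, start of the pair, chr2:152293645-152293674: ccttgtggatttAATATTttattttcataa
Tma7, no site of these enzymes, start of the pair, chr9:109082391-109082420: acttacagccttcgcttatgccgcacctat

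The pairs behind these ends ranged from short to several kilobases. At Eif1, which helps the ribosome select the start codon, both lists gave chr11:100319763-100324022 (4260 bp), with a score of 92 in HEPA1-6 and 39 in liver. At Hnrnph1, a splicing regulator, both lists gave chr11:50376859-50380097 (3239 bp, scores 45 and 31). Rnf7, a subunit of cullin ubiquitin ligases, held a shared interval of 748 bp that scored 63 in HEPA1-6 and 59 in liver. At Ptges3, a co-chaperone of Hsp90, the shared interval measured 1318 bp and scored 77 and 33. The interval without a site, at Tma7, was 239 bp wide and scored 20 and 24. Scores have no stated scale, so they are given beside each other and not compared between lists.

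Ends that were not shared lay at a cut position less often. In the same pairs, 23 of 74 readable HEPA1-6 ends (31.1%, 21.7 to 42.3%) and 22 of 92 liver ends (23.9%, 16.4 to 33.6%) did, with intervals below that of shared ends. Among peaks that overlap no peak of the other list, on the same chromosomes and inside or outside genes, the shares were 141 of 361 in HEPA1-6 (39.1%, 34.2 to 44.2%) and 33 of 104 in liver (31.7%, 23.6 to 41.2%). Shared ends of same-strand genic pairs at or above either score ceiling gave 18 of 19 (94.7%, 75.4 to 99.1%), which overlaps the value of the moderate-score pairs. Only ends near a gene start could be read, so the share at other ends is not known.

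Where the ends differed, HEPA1-6 usually reached further out. It did so at 1083 starts and 1105 ends, by a median of 376 and 392 bp. Liver reached further at 167 starts and 152 ends, by a median of 112 and 114 bp. The commonest unequal distance was 117 bp with HEPA1-6 further out, found at 30 starts and 27 ends. The liver interval lay wholly within the HEPA1-6 interval, equal ends included, in 1934 pairs (86.5%, 85.1 to 87.9%).

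**Figure D1:**
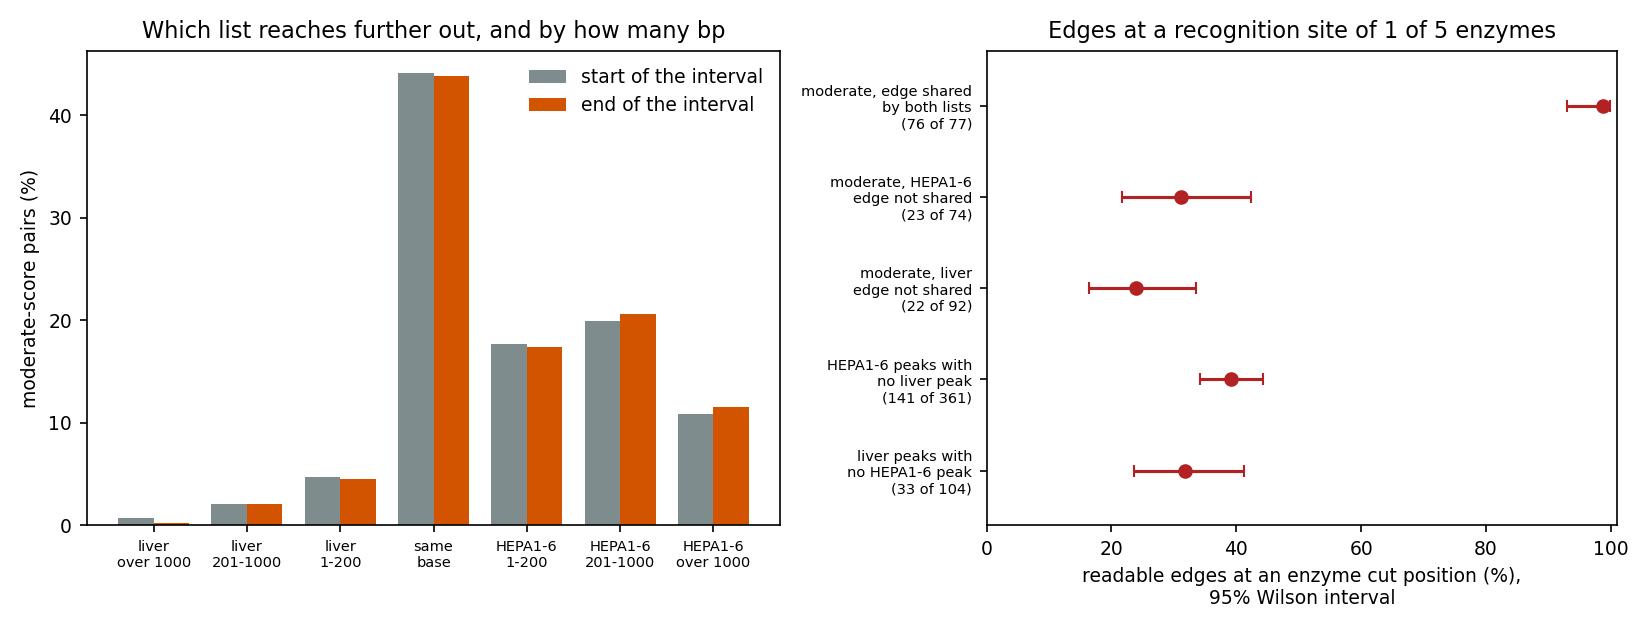
Left, share of the 2235 moderate-score pairs (y axis, %) by which list reaches further out at the start and at the end, and by how many bp. The same base makes up 44.1% of starts and 43.8% of ends. Right, share of readable ends at a cut position of 1 of the 5 enzymes (x axis, %), with 95% Wilson intervals. Shared ends stand at 98.7% and the other 4 sets between 23.9% and 39.1%.

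Width followed from this. The HEPA1-6 interval was the wider in 1659 pairs (74.2%, 72.4 to 76.0%) and the liver interval in 208 (9.31%, 8.17 to 10.6%). HEPA1-6 intervals had a median width of 1882 bp, with quartiles of 1024 and 3777 bp. Liver intervals had a median width of 1527 bp, with quartiles of 858 and 2852 bp. The overlap rule holds the ratio of widths between 0.5 and 2, and its median was 1.22. Shared stretches, the bases in both intervals, had a median of 1478 bp and ran from 172 to 21119 bp. The 421 higher-scoring pairs, which meet the rule except that at least 1 score reaches its ceiling, had a longer median stretch of 2736 bp. They had both ends the same more often, in 112 cases (26.6%, 22.6 to 31.0%). Pairs with both ends the same were about as long as the other moderate-score pairs, with a median stretch of 1527 against 1476 bp.

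The scores that chose the pairs are given as a description. In liver they ran from 11 to 59 with a median of 24 (interquartile range 17 to 32), and in HEPA1-6 from 10 to 99 with a median of 38 (25 to 55). Just inside the liver ceiling lay identical intervals at Terf1, which binds telomeric repeats (1307 bp, scores 85 in HEPA1-6 and 59 in liver), and at Acsl5, a fatty acid activating enzyme (242 bp, 28 and 59). Just outside it lay Uxs1 (66 and 60) and Slc7a1 (72 and 60). At the HEPA1-6 ceiling, Txndc9 (99 and 42), the splicing factor gene Sf3b4 (99 and 31) and Fbxo41 (99 and 40) lay inside. Snrpb (100 and 44) and Tpcn1 (100 and 46) lay outside. Of the higher-scoring pairs, 38 reached the liver ceiling only, 129 the HEPA1-6 ceiling only and 254 both.

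**Figure D2:**
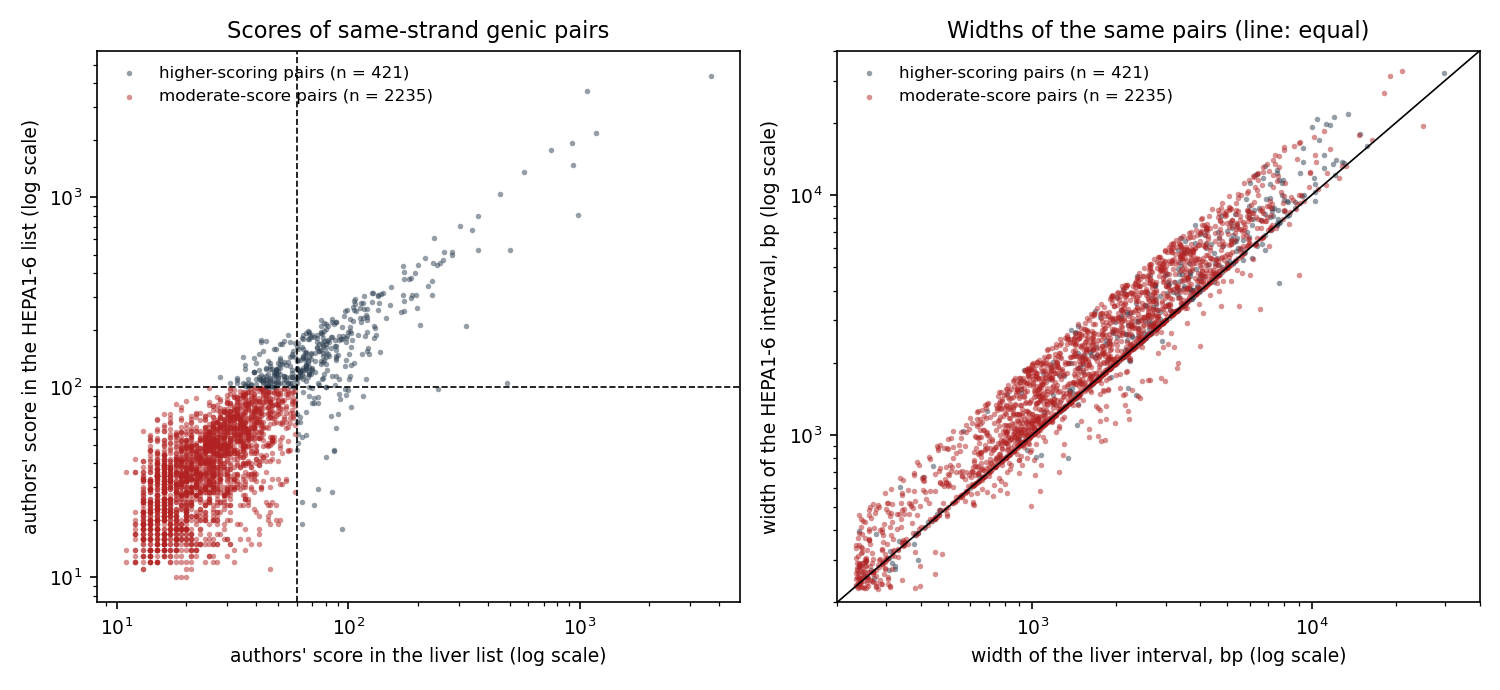
Left, authors' score of each same-strand genic pair in the liver list (x) and the HEPA1-6 list (y), log axes, with dashed lines at the ceilings of 60 and 100 that define the 2235 moderate-score pairs. Right, width of the liver interval (x, bp) against the HEPA1-6 interval (y, bp) on log axes, where the line marks equal width and 74.2% of moderate-score pairs lie above it.

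Most pairs lay over a single protein-coding gene. Of the 2235 shared stretches, 2163 (96.8%) touched a protein-coding gene, 220 a long noncoding RNA gene, 1824 touched 1 gene, 377 touched 2 and 34 touched 3 or more. The extreme was a stretch on chromosome 18 in the protocadherin gamma cluster, which touches 26 overlapping genes. The gene table gives gene boundaries and no exons, so exons and introns are not told apart. Among 1469 pairs over 1 gene of known strand, 1389 (94.6%, 93.3 to 95.6%) carried the strand of that gene. The same share was 94.0% for HEPA1-6 peaks without a liver peak and 90.3% for liver peaks without a HEPA1-6 peak. How the authors gave a strand to a peak is not stated in the sources used here.

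Within genes, the pairs gathered at the 5′ end. The shared stretch came within 1 kb of the 5′ boundary of a gene (protein-coding or lncRNA) in 710 pairs (31.8%, 29.9 to 33.7%) and within 1 kb of a 3′ boundary in 378 (16.9%, 15.4 to 18.5%). Both were met by 162 pairs and neither by 1309 (58.6%). Among the 1355 pairs over a single protein-coding gene of known strand, 29.4% (27.1 to 31.9%) had their midpoint in the first 10% of the gene. The last 10% held 10.9% (9.37 to 12.7%), and the lowest share, 5.39% (4.31 to 6.72%), was in the stretch just before the middle. Genes without a RefSeq start window have no strand here and were not counted, which leaves 16035 of 19889 protein-coding genes on these chromosomes.

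Pairs differed in this from stranded genic peaks called in HEPA1-6 alone. Of 16571 such peaks without a liver peak, 7.62% (7.23 to 8.04%) lay at gene starts and 8.53% (8.11 to 8.96%) at gene ends, and 11.1% of midpoints fell in the first 10% of the gene. Of 933 liver peaks without a HEPA1-6 peak, 19.2% (16.8 to 21.8%) lay at starts and 3.97% (2.89 to 5.42%) at ends. Higher-scoring pairs had the largest shares of these sets, with 55.1% (50.3 to 59.8%) at starts and 30.9% (26.7 to 35.4%) at ends. Widths differed between the sets as well. Median widths were 865 bp for HEPA1-6 peaks without a partner, 527 bp for liver peaks without a partner, and 1478 and 2736 bp for stretches of moderate-score and higher-scoring pairs. In rising order of width, the shares at gene ends were 3.97%, 8.53%, 16.9% and 30.9%. In the same order of sets, those at gene starts were 19.2%, 7.62%, 31.8% and 55.1%. Taking the midpoint alone, the shares at gene starts were 21.7% for moderate-score pairs and 31.8% for higher-scoring pairs. For peaks without a partner they were 5.58% in HEPA1-6 and 16.3% in liver. The sets kept the rank they had with whole regions. The single genes under the regions had a median length of 37934 bp for moderate-score pairs, 28196 bp for higher-scoring pairs, 52789 bp for HEPA1-6 peaks and 83330 bp for liver peaks without a partner. Scores differed too, and within each list the peaks without a partner scored lower. The median was 18 for HEPA1-6 peaks without a partner, against 38 in HEPA1-6 for moderate-score pairs. It was 18 for liver peaks without a partner, against 24 in liver for moderate-score pairs. The parts of width, gene length and score in these shares were not tested.

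**Figure D3:**
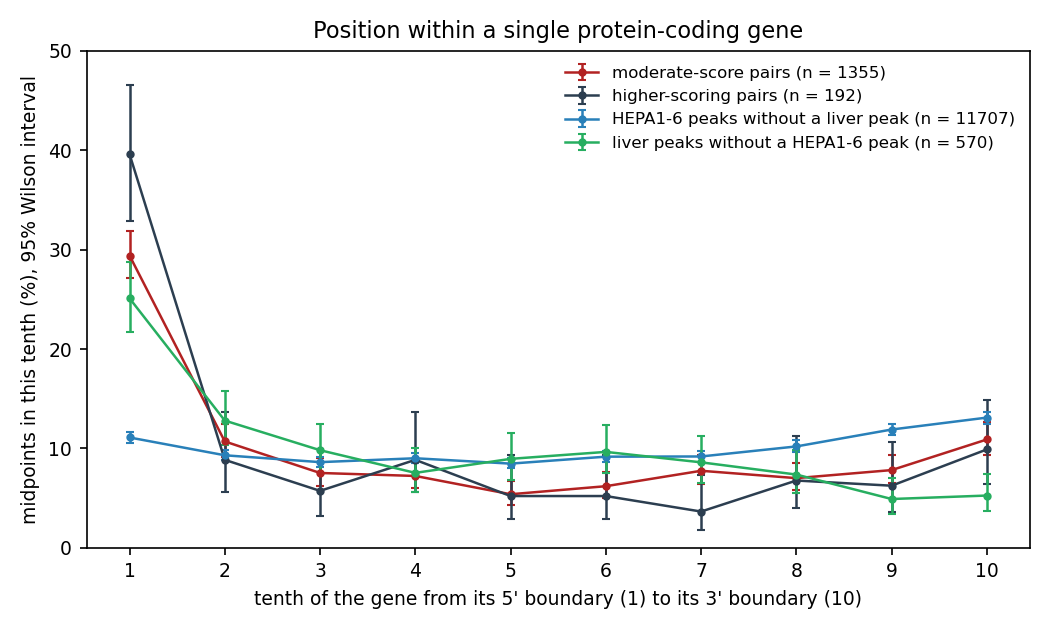
Share of midpoints (y axis, %, with 95% Wilson intervals) in each 10% of a single protein-coding gene from its 5′ to its 3′ boundary (x axis), for 4 sets of regions. Moderate-score pairs have 29.4% in the first 10%, and HEPA1-6 peaks without a liver peak have 11.1%.

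The pairs were not uniform. With a liver score of 11 to 17 (574 pairs), 16.9% (14.1 to 20.2%) lay at gene starts and the median stretch was 904 bp. With 18 to 24 (614 pairs) these were 27.2% and 1322 bp, and with 25 to 32 (526 pairs) 38.8% and 2034 bp. At 33 to 59 (521 pairs), 46.4% (42.2 to 50.7%) lay at gene starts and the median stretch was 2385 bp. Both ends were the same in 15.3%, 18.8% and 20.3% of the upper 3 sets, in rising order of score. Width rose with the score, so the shares at gene starts cannot be told apart from it.

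Whole start windows of 300 bases lay inside 509 pairs, and those of protein-coding genes (621 windows, 525 genes) were GC-rich and rich in CpG, the dinucleotide that is depleted in most of the genome and kept at CpG islands. The median GC content was 65.7%, against 56.7% over all 19559 windows of protein-coding genes and 54.7% over the 15230 windows that touch no peak of either list. The CpG ratio, observed over expected from base composition, had a median of 0.85 against 0.58 and 0.45. Windows with GC above 50% and a CpG ratio above 0.6 made up 84.4% (81.3 to 87.0%), against 46.1% of all windows. In higher-scoring pairs this share was 87.9% (83.5 to 91.2%), whose interval overlaps, and in HEPA1-6 peaks without a liver peak 75.9% (72.2 to 79.2%). GC skew, the excess of G over C on the gene's strand, which favours R-loops when positive, had a median of 0.03, against 0.02 over all windows. It was above 0 in 59.4% (55.5 to 63.2%), against 53.4% (52.7 to 54.1%) of all windows and 47.4% (43.4 to 51.5%) of those in HEPA1-6 peaks without a liver peak. Higher-scoring pairs gave 55.9% (49.9 to 61.7%), and the 54 windows in liver peaks without a HEPA1-6 peak gave 68.5% (55.3 to 79.3%), both with intervals that overlap that of the moderate-score pairs.

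Start windows inside moderate-score pairs held fewer sites of the 5 enzymes than all windows did, and this was not particular to these pairs. At least 1 site was in 34 of 621 windows (5.48%, 3.94 to 7.55%), against 24.2% (23.6 to 24.8%) of all windows. Restricted to windows above both composition limits, it was 25 of 524 (4.77%, 3.25 to 6.95%) against 14.1% (13.4 to 14.8%). Higher-scoring pairs had a site in 6.62% of windows and HEPA1-6 peaks without a liver peak in 6.68%, or 6.69% and 5.87% above both composition limits. Liver peaks without a HEPA1-6 peak had a site in 10 of 54 windows (18.5%, 10.4 to 30.8%), with an interval that includes 24.2%. Above both limits it was 2 of 35 (5.71%, 1.58 to 18.6%), with an interval that includes 14.1%. A window had to lie wholly inside a pair to be counted, and pairs often end at such sites, and the part of this in the lower share was not tested. The TATA motif TATAAA, on either strand, was in 5.31% (3.81 to 7.37%) of the windows and in 12.8% of all windows. It was about as rare in HEPA1-6 peaks without a liver peak (5.14%, 3.62 to 7.24%) and in higher-scoring pairs (6.62%, 4.23 to 10.2%).

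The range in composition shows in the starts below, the 250 bases before the gene start on the gene's strand, from RefSeq on GRCm38, with each CpG in capitals. They belong to listed genes whose whole window lies in a pair with both ends the same. Rpl6 has the fewest CpG and Srsf10 the most of the 6 windows taken by that rule, and Hnrnph1 also appears above for its EcoRI end.
Rpl6, chr5:121204251-121204500, plus strand: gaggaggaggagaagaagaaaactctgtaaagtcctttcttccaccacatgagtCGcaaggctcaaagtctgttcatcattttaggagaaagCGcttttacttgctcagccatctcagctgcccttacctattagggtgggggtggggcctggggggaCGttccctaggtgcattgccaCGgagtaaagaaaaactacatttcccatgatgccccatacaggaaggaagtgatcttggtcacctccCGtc
Cdk1, chr10:69352913-69353162, minus strand: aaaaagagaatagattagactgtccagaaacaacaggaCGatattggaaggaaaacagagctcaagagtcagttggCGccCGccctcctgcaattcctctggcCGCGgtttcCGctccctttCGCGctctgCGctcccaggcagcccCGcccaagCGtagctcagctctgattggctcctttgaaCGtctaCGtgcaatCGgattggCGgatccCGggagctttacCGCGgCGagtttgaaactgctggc
Hnrnph1, chr11:50377428-50377677, plus strand: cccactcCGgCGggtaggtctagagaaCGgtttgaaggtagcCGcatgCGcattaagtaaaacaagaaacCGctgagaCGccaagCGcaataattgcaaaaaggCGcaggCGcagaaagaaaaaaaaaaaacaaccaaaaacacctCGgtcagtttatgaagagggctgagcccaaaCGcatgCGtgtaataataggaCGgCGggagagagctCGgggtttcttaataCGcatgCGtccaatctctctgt
Srsf10, chr4:135855821-135856070, plus strand: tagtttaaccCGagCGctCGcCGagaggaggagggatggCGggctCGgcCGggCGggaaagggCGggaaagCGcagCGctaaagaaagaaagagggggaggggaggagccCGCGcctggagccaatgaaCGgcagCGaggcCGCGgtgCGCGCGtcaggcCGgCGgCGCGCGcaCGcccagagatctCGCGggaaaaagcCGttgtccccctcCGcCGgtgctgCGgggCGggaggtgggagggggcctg

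**Figure D4:**
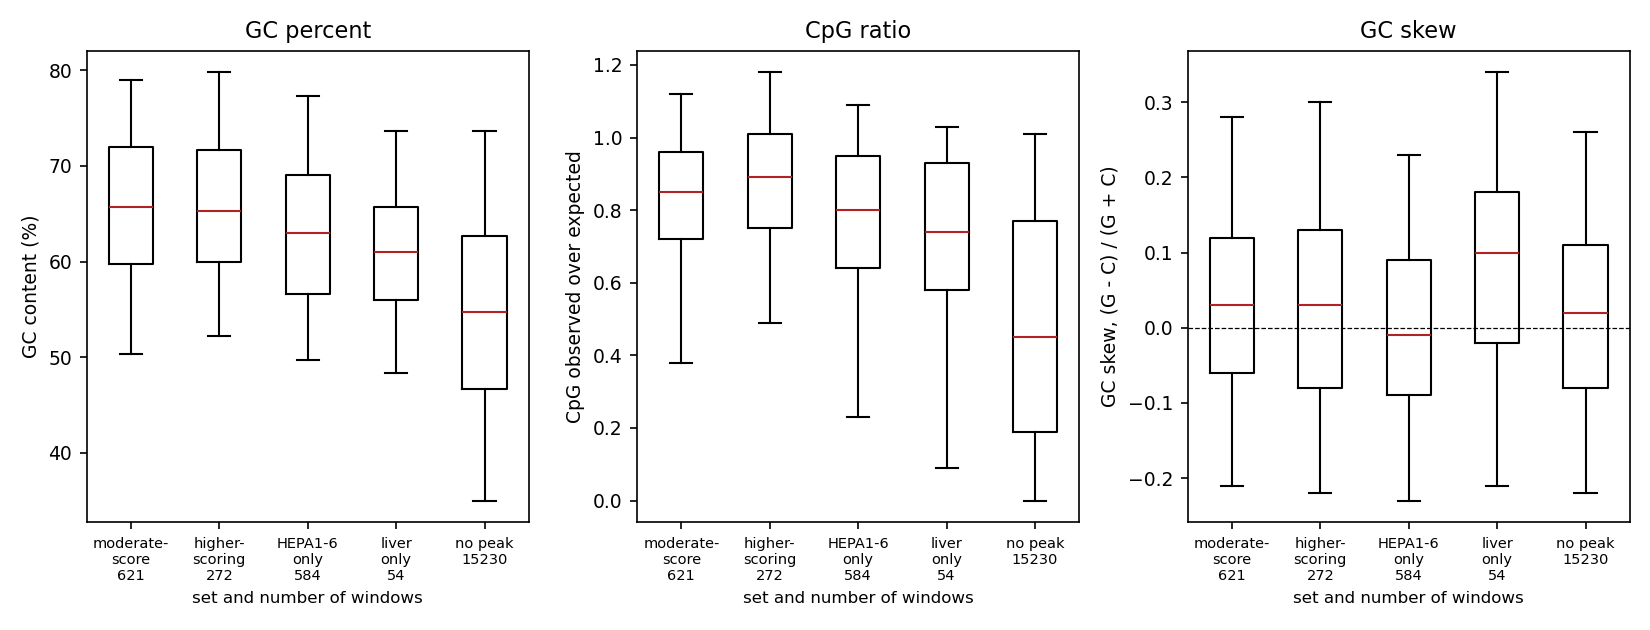
GC content (%), CpG observed over expected and GC skew of 300-base start windows of protein-coding genes inside 4 sets of regions and in windows that touch no peak. Boxes show the median and quartiles and whiskers the 5th and 95th percentiles over windows. Median GC is 65.7% in moderate-score pairs and 54.7% without a peak.

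Rpl6, a protein of the large ribosomal subunit, held 5 CpG in the printed stretch, and its window had a GC content of 50.3% and a CpG ratio of 0.42. Its pair, chr5:121202729-121209378, had the same 6650 bp in the HEPA1-6 and liver lists, with scores of 72 and 25. At Cdk1, the kinase that drives entry into mitosis, 19 CpG were printed, with a CpG ratio of 0.96. Both lists gave the same 5312 bp there (chr10:69348391-69353702, scores 93 and 48). Srsf10, an SR splicing protein, held 33 CpG at a GC content of 71.3%, in a pair of 2441 bp (scores 50 and 25).

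To see which genes carried the pairs, 18 lists of genes were used. A gene was counted as holding a pair if the shared stretch overlapped it, whichever strand the pair carried. Of 19889 protein-coding genes on these chromosomes, 1972 (9.92%) held at least 1 moderate-score pair, and of the 5254 genes with a peak in both lists, 1972 (37.5%) did. A list can thus fall below the first share because its genes hold no peaks, or below the second because their peaks scored higher or overlapped less. The lists were written with earlier results of these data known, so their counts are a description.

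Genes of splicing, protein breakdown and translation held pairs at shares whose intervals lie above 9.92%. Of 57 splicing factor genes, 18 (31.6%, 21.0 to 44.5%) held a pair, as did 11 of 38 proteasome genes (28.9%, 17.0 to 44.8%) and 11 of 41 translation factor genes (26.8%, 15.7 to 41.9%). Among genes with a peak in both lists, pairs lay over 36.0% of the splicing genes, 35.5% of the translation genes and 11 of 22 proteasome genes, against 37.5% over all such genes. For splicing and translation these shares are near 37.5%. The part of holding peaks in both lists in the shares over all genes was not tested. Dhx15, a helicase that releases the spliceosome, held an interval of 1751 bp shared to the base (scores 56 in HEPA1-6 and 21 in liver). Psmb1, a subunit of the catalytic core of the proteasome, held a shared 450 bp (22 and 16), and at Psmd5, which helps assemble its cap, the intervals of 255 and 236 bp scored 37 and 21. Eif4e, the protein that binds the mRNA cap, held a shared 736 bp (58 and 18). The pair at Eif2a shared its end and differed by 117 bp at the start (1754 and 1637 bp, scores 49 and 22). It also lies over Serp1.

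All 68 cytosolic ribosomal protein genes held a peak in both lists, against 26.4% of all protein-coding genes. A moderate-score pair lay over 10 of them (14.7%, with an interval that includes 9.92%) and a higher-scoring pair over 34, against 2.37% of all genes. Beside Rpl6, these included Rpl23, whose stretch of 5530 bp also holds the snoRNA gene Snora21 (scores 94 and 48). At Rps25 the pair (1337 bp, 75 and 28) also lies over Trappc4 and carries the strand opposite to Rps25. Among 75 mitochondrial ribosomal protein genes, 4 (5.33%, 2.09 to 12.9%) held a pair, 30 a peak in both lists and 2 a higher-scoring pair. Of the 30 with a peak in both lists, 13.3% held a pair. Mrps27 held 382 bp in HEPA1-6 and 385 bp in liver (scores 12 and 26), and Mrpl12 held 7656 and 4994 bp (99 and 53). Of 66 respiratory chain genes, 8 (12.1%, 6.27 to 22.1%) held a pair, near the share over all genes. Among them was Ndufs1, a core subunit of complex I (3139 and 2819 bp, scores 42 and 27), whose pair also lies over Eef1b2.

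Genes of dividing cells held pairs at a share whose interval lies above 9.92%. For DNA replication the count was 11 of 47 (23.4%, 13.6 to 37.2%) and for mitosis 9 of 43 (20.9%, 11.4 to 35.2%). Among genes with a peak in both lists the shares were 39.3% and 45.0%, near the 37.5% over all such genes. Rpa1, the large subunit of the single-strand DNA binding protein, held 984 bp in HEPA1-6 and 823 bp in liver (scores 15 and 38). Incenp, of the chromosomal passenger complex, and Ccna2, cyclin A, held intervals shared to the base (2794 bp, 62 and 35, and 1659 bp, 40 and 24). Peaks lay over 31 of the 43 mitosis genes in HEPA1-6 and over 21 in liver, where 41.5% and 28.1% of all protein-coding genes held one. The peak lists do not show which cells of the liver these came from.

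Genes for products that define hepatocytes held pairs at shares whose intervals include 9.92%. Of 48 genes for secreted plasma proteins, 1 (2.08%, 0.369 to 10.9%) held a pair, 13 a HEPA1-6 peak and 9 a liver peak. That gene was Itih2, which encodes a heavy chain that binds hyaluronan (486 and 343 bp, scores 44 and 16). Of 46 liver enzyme genes, 3 (6.52%, 2.24 to 17.5%) held a pair, 11 a HEPA1-6 peak and 7 a liver peak. They were Pklr, the liver and red cell pyruvate kinase (a shared 4304 bp, 49 and 26, also over Hcn3 and on the strand opposite to Pklr), Aldh2 (17 and 27) and Aldh1a1 (37 and 17). The shares over all genes with a HEPA1-6 or a liver peak were 41.5% and 28.1%, and whether these lists differ from them was not tested.

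Genes that regulate the hepatocyte and its lipid synthesis were also read. Of 26 hepatocyte transcription factor genes, 5 (19.2%, 8.51 to 37.9%) held a pair, with an interval that includes 9.92%. A HEPA1-6 peak lay over 17 of them and a liver peak over 15. Esrra, an orphan receptor that controls mitochondrial genes, held 4151 bp shared to the base (33 and 35), also over Catsperz. Foxa3 held 282 bp shared to the base (32 and 20), on the strand opposite to the gene and over no other gene. Rxra, the shared partner of many nuclear receptors, held 437 and 433 bp (20 and 14). Of 34 genes of cholesterol and fatty acid synthesis, 9 (26.5%, 14.6 to 43.1%) held a pair. Gpam, of glycerolipid synthesis, held 910 bp in HEPA1-6 and 925 bp in liver (31 and 31).

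Markers of the other cells of liver were nearly without pairs. None of 11 Kupffer cell markers (upper bound 25.9%), 12 endothelial markers (24.2%) or 12 stellate cell markers (24.2%) held one, and 2, 0 and 1 of them held a liver peak. Among 11 cholangiocyte markers, 1 held a pair and 3 a liver peak. With lists this short, 0 genes does not show that the share lies below that over all genes.

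The machinery of transcription and of R-loop removal gave the following counts. Of 63 genes of the RNA polymerase II machinery, 7 (11.1%, 5.49 to 21.2%) held a pair, close to all genes. Cdk9, the kinase that releases paused polymerase, held 8858 and 7184 bp (46 and 22), in a pair that also lies over Fpgs. Med1, of the Mediator complex, held 2865 and 2507 bp (75 and 31). Of 27 genes that resolve or prevent R-loops, 6 (22.2%, 10.6 to 40.8%) held a pair, with a lower bound just above 9.92%. The 6 include Brca1, whose named pair lies on the opposite strand, and the share without it was not counted. A higher-scoring pair lay over 5 of the 27, against 2.37% of all genes. Among the 17 with a peak in both lists, 35.3% held a moderate-score pair, near the 37.5% over all such genes. Aqr, a helicase of the spliceosome that unwinds hybrids, held 257 and 247 bp (13 and 14). Brca2, a recombination factor, held 1396 and 1270 bp (21 and 24). The Brca1 pair also lies over Nbr1 and carries the strand of Nbr1, opposite to Brca1 (1188 and 1055 bp, 25 and 21). Xrn2, the exonuclease that ends transcription, held 4215 and 2388 bp (62 and 39).

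**Figure D5:**
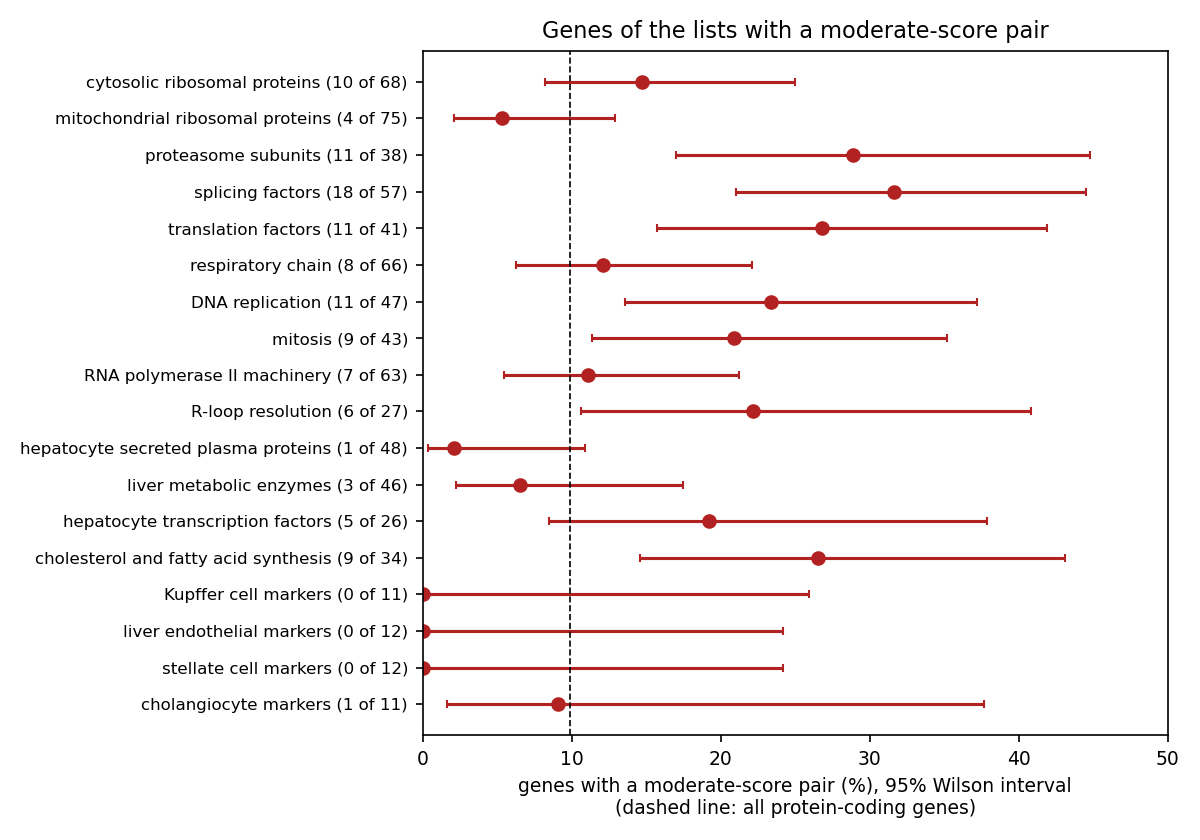
Share of genes of each list with a moderate-score pair (x axis, %, with 95% Wilson intervals), for 18 lists (y axis, counts in brackets). The dashed line marks 9.92%, the share over all protein-coding genes. Splicing factors stand at 31.6% and secreted plasma proteins at 2.08%.

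Most genes with a pair held only 1: 1618 of 1972 protein-coding genes did, 276 held 2, 59 held 3, 14 held 4 and 5 held 5. The genes with 5 were Atg7, an activating enzyme of autophagosome formation, Cdk8, the Mediator kinase, Mpzl1, Nhlrc2 and Rnf216, a ubiquitin ligase. They are 42366 to 217478 bp long. In Atg7, 3 of the pairs had the same ends in both lists (1762, 490 and 1083 bp), and liver scores ran from 13 to 25. In Cdk8, the pair nearest the 5′ end scored highest in both lists (73 and 48), and the other 4 scored 24 to 48 in HEPA1-6 and 20 to 31 in liver. The Mpzl1 pairs scored 14 to 75 in HEPA1-6 and 16 to 50 in liver. In Nhlrc2, the pair chr19:56548352-56550775 had the same 2424 bp in both lists (50 and 26), and its start, in the window of the neighbouring gene Dclre1a, lies at an EcoRI site.

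The widest stretches covered whole neighbourhoods. The widest, 21119 bp on chromosome 2, lay over Lama5, a laminin of basement membranes, and Adrm1, a ubiquitin receptor of the proteasome. There HEPA1-6 had 32968 bp and liver 21119 bp from the same start (scores 82 and 49). A stretch of 18238 bp on chromosome 6 lay over Usp5, Spsb2 and Tpi1, a glycolysis enzyme (96 and 59). At Habp2 on chromosome 19 the liver interval was the wider, with 25099 against 19486 bp (33 in liver and 53 in HEPA1-6). At Ephb4, an ephrin receptor, the intervals shared the start and measured 17038 and 16389 bp (74 and 39). Tk1, a thymidine kinase made in dividing cells, lay with Syngr2 and Afmid under 14752 bp (71 and 38), on the strand opposite to Tk1.

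Small RNA genes lay inside some pairs. Whole microRNA genes numbered 29 in 28 pairs, such as Mir423 in a stretch of 2197 bp over Nsrp1 (39 and 36). Whole snoRNA genes numbered 10 in 9 pairs. Beside Snora21 in Rpl23, they included Snora31 in Tpt1, a gene for an abundant growth-related protein (3944 bp, 52 and 25). Peaks of this width do not tell the small RNA from its host gene. The share of all microRNA or snoRNA genes inside pairs, or inside other peaks, was not counted. These numbers thus do not show whether pairs hold more or fewer of them than other regions.

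Pairs were spread over all 18 chromosomes used. As a share of stranded genic liver peaks they ran from 18.6% (16.1 to 21.4%) on chromosome 7 to 26.2% (23.3 to 29.4%) on chromosome 6. As a share of stranded genic HEPA1-6 peaks they ran from 6.63% on chromosome 16 to 12.8% on chromosome 5. Chromosome 11 held the most, with 264 pairs, and chromosomes 12 and 14 the fewest, with 32 each.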

How the data were processed

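Genomic DNA of HEPA1-6 cells and mouse liver was immunoprecipitated with S9.6 and sequenced in 12 libraries. The submitters' processing notes name CASAVA 1.8.2, cutadapt, Bowtie2, bedtools, SAMtools, MACS2 and build mm10, with no role or order. Names in the deposited lists show that immunoprecipitates were merged and compared with input. Each peak has a score that the authors deposited, whole and at least 10, whose scale is not stated. Thresholds and the way strands were given are not given in the sources used here, and depth is unknown.

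The 2 lists were read as GRCm38 and intersected in Python 3.11.15 with pandas 2.3.3. Genes came from a RefSeq table of 49997 genes, and strands and start windows from a RefSeq table of 32851 windows. Overlap functions were tested on simulated data, where 500 of 500 planted pairs were found. Nothing was tested between sources. Named pairs are those with the highest mutual overlap in each gene list (up to 3), the 8 widest stretches, the genes with most pairs, and those nearest each ceiling. Some of these genes are not reported here. Others, such as Rpl23, Xrn2, Mir423 and Snora31, and the printed ends, were chosen after their values were seen. Members and gene lists were chosen with earlier results of these data known. Alternatives changed the overlap, the ceilings, a score minimum, the gene rule and the window. Sequence of chromosome 18 is not printed.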

Additional observations from a re-analysis of the deposited data

How the results depend on the processing

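Of 49 alternatives over 7 results, 25 stayed within the reported interval, or within 1.5 times a reported count, and 24 moved. Values below are in the order of the results named. With an overlap of 25% of each interval there were 4062 pairs at 3077 protein-coding genes, 9.06% with both ends the same, 26.8% at gene starts and 84.4% wider in HEPA1-6. With 80% there were 1103 pairs at 1070 genes, 33.4% with both ends the same, 14.5% at gene ends and 54.0% wider in HEPA1-6. These follow in part from the overlap itself, since a higher overlap requires closer ends. Ceilings of 40 in liver and 60 in HEPA1-6 gave 14.9% with both ends the same, 27.2% at starts and 13.3% at ends. A minimum of 20 for both scores gave 1375 pairs, 18.4%, 39.7% and 22.3%. Midpoints in a gene gave 29.3% at starts. Windows of 500 bp gave 28.5% at starts and 13.7% at ends, windows of 2 kb 36.2% and 22.0%, and the midpoint of the stretch 21.7% and 8.05%, since each takes in fewer or more positions. Gene starts held more pairs than gene ends in each of these settings, and HEPA1-6 was the wider in over 50% of pairs. Requiring a gene in common changed nothing, because every pair had one. Counting a site within 12 bases of a shared end, an alternative chosen after seeing the data, again gave 98.7%.

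No paired analysis was possible because the data used here are 1 merged list per source. Leaving out a replicate was not run for the same reason. Depth is unknown, and so is the lowest signal that either list can hold.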
